A study of Mesocricetus auratus with 10 samples.

Results

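The genes described here make, store, shuttle and oxidise retinol in the liver: RETSAT, LRAT, RDH10, RDH11, DHRS3, ALDH1A1 and STRA6. Members were taken as all probes, control spots aside, that the array's design names for 1 of these 7 genes. The array named probes for 6 of them, and LRAT had none and is not analysed here. Together the 6 genes held 47 of the array's 116452 probes, printed as 80 spots and designed against 13 assembled transcripts. Of these 47 probes, 46 passed the filter on dim probes, and a STRA6 probe did not, since the software marked it as well above background on only 5 of 20 arrays in the HFD RNA and 4 in the pool.

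Male golden hamsters (Mesocricetus auratus) were fed a high fat diet (HFD), which in this study serves as a model of fatty liver, or a standard diet (STD). Liver RNA of each of 10 HFD animals was hybridised against 1 pool of liver RNA from 10 STD animals, on a pair of 2-colour arrays with the dyes exchanged. Age, the length of feeding and the strain are not given in the labels. Values below compare an HFD liver with the STD pool as a log2 ratio, averaged over the 2 arrays of an animal. The STD animals were measured only as the pool, so their own spread enters no test. Which dye held the HFD RNA on an array, and so the direction of every ratio, was read from the array names.

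Retinol reaches cells bound to a carrier protein and is stored in the liver as retinyl esters, chiefly in the lipid droplets of stellate cells. LRAT makes these esters. Dehydrogenases such as RDH10 oxidise retinol to retinal, DHRS3 reduces retinal back to retinol, and RDH11 can work on retinal as a reductase. ALDH1A1 oxidises retinal to retinoic acid, the ligand of nuclear receptors. RETSAT saturates retinol to 13,14-dihydroretinol, and STRA6 is the cell surface receptor that takes retinol up from its carrier in other tissues.

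For ALDH1A1, DHRS3 and RDH10 the array held probes against both strands of the same stretch. Their transcripts' probes shared runs of 28 to 59 bases as reverse complements in 8 probe pairs. The probes of each of these genes were therefore split into those on the strand of its brightest probe and those on the opposite strand. Which strand is the coding one is not given in the files used here, and the probe sequences were not compared with known proteins. One pair of each gene is printed 5′ to 3′ as deposited, because the results below turn on this split. Capitals mark the bases that occur in the partner as the reverse complement, and the first of each pair lies on the strand of the brightest probe.
ALDH1A1 probe CUST_61940_PI426903241: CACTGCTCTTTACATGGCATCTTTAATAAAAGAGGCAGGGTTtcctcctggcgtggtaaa
ALDH1A1 probe CUST_73357_PI426903241: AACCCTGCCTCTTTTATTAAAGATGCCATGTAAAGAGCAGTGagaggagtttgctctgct
DHRS3 probe CUST_70777_PI426903241: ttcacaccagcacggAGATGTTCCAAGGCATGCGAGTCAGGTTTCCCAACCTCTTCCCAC
DHRS3 probe CUST_60017_PI426903241: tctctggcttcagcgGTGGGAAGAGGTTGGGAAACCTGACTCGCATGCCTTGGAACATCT
RDH10 probe CUST_56327_PI426903241: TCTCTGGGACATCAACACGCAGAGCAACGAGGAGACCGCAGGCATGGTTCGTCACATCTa
RDH10 probe CUST_62077_PI426903241: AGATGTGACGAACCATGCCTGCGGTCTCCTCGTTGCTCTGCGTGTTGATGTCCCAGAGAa

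RETSAT and RDH11 had no such partner, and all probes of each gene came from 1 transcript. Their brightest probes, which carry the clearest differences of the group, are printed in the same way, without capitals.
RETSAT probe CUST_92128_PI426903241: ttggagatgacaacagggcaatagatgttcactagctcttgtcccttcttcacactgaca
RDH11 probe CUST_54593_PI426903241: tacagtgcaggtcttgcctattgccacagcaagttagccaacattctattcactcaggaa

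Which of the retinoid genes differed between the diets was first read from the brightest probe of each gene. By these probes RETSAT and RDH11 were lower in HFD liver, RDH10 was slightly higher, and DHRS3, ALDH1A1 and STRA6 were not called. Calls were made with limma, two-sided, at a Benjamini-Hochberg adjusted p under 0.05 over all 13826 named genes. The array-wide share of called genes was 60.3%, with 31.4% higher and 28.9% lower, so 3 calls among 6 genes are near the background. The size of the RETSAT and RDH11 ratios set them apart in the ranking by ratio, in which they stood 120th and 141st from the bottom. The strand that the RETSAT probes read was not determined here. Probes opposite to the strand of a gene's brightest probe ran lower across the array, as given below, which limits the reading of the RETSAT rank.

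RETSAT, the retinol saturase, gave a spot signal of 221 to 825 intensity units (median 428) in the HFD RNA and of 449 to 829 (median 605) in the pool on the 20 arrays. Spot signals here and below are mean intensities before background correction and normalisation, so their medians do not give the ratios. The signal ranges overlapped, but the ratio, as the mean of an animal's 2 arrays, was below 0 in all animals. It lay between -1.12 and -0.52 with a median of -0.74. Animals 9 and 5 had the lowest ratios, and animal 3 the highest. The mean was -0.78 ± 0.19 (SD, n = 10), a 1.71-fold lower reading of this probe, with an adjusted p of 9.52e-08 in limma. All 5 further probes of RETSAT were called lower as well, and the means of the 6 probes ran from -0.93 to -0.59.

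RDH11, a microsomal retinal reductase, was dimmer, with 126 to 424 intensity units (median 193) in the HFD RNA and 194 to 417 (median 315) in the pool. It was well above background in both RNAs on all 20 arrays. Its ratio was between -0.81 and -0.56, with a median of -0.78. Animal 1 lay highest, and the other 9 animals lay at or below -0.68. The mean of -0.75 ± 0.08 (n = 10) is a 1.68-fold lower level and had an adjusted p of 3.11e-10 in limma. The second RDH11 probe was also called lower, at -0.52 ± 0.13. By the brightest probes RDH11 thus varied less between animals than RETSAT, with an SD below the median SD of 0.11 over named genes. The SD of 0.13 of the second RDH11 probe was above that median.

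RDH10, the main retinol dehydrogenase of retinal supply, had a signal of 1312 to 3475 intensity units (median 2788) in the HFD RNA and of 1323 to 3350 (median 2015) in the pool. Its ratio was 0.11 ± 0.12 (n = 10), from -0.01 in animal 10 to 0.31 in animal 5, and above 0 in 8 of 10 animals. The adjusted p was 0.014 in limma. The mean is of the size of the SD between animals, and the call was lost on arrays with HFD in Cy5 alone (0.06, limma adjusted p = 0.13), in the third scan session alone (0.10, 0.073), in animals 1 to 4 (0.10, 0.17) and in animals 5 to 10 (0.12, 0.059).

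DHRS3, the retinal reductase that retinoic acid is known to induce, gave 6049 to 15844 intensity units (median 11039) in the HFD RNA and 6798 to 15565 (median 10251) in the pool. The DHRS3 ratio was -0.02 ± 0.13, with a 95% interval from -0.10 to 0.07, above 0 in 4 animals and below it in 6. The aldehyde dehydrogenase ALDH1A1 was bright, with medians of 49705 in the HFD RNA and 42983 in the pool. The ALDH1A1 ratio was 0.03 ± 0.15, with a 95% interval from -0.07 to 0.12. Animals 10 and 9 lay lowest at -0.31 and -0.09, and the other 8 were above 0. STRA6, the retinol receptor, had a ratio of -0.07 ± 0.13 and an interval from -0.16 to 0.01. The limma adjusted p was 0.71 for DHRS3, 0.60 for ALDH1A1 and 0.12 for STRA6, and the intervals bound a mean change of these brightest probes against this pool.

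**Figure D1:**
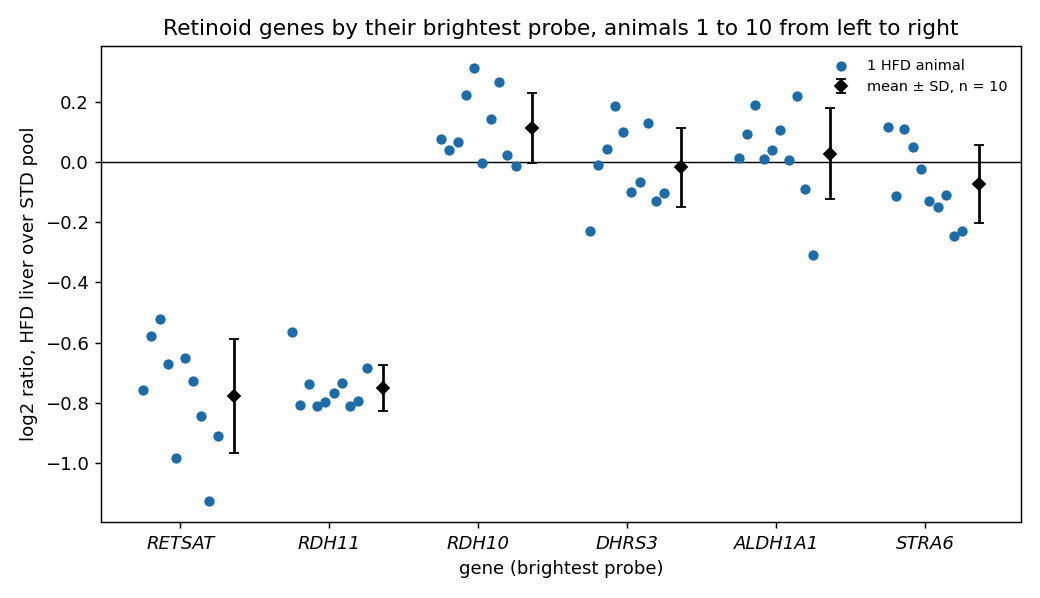
Log2 ratio of HFD liver over the STD pool (vertical axis) for the brightest probe of each gene (horizontal axis). Points are animals 1 to 10 from left to right, and diamonds with bars are the mean ± SD (n = 10). All RETSAT and RDH11 points lie below -0.5, whereas the points of the other 4 genes lie on both sides of 0.

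Over all 46 tested probes, 5 were called higher and 27 lower, and 14 were not called (limma, adjusted over 103879 probes). On the whole array 55.1% of probes were called, 26.7% higher and 28.4% lower. RETSAT had 6 of 6 probes lower and RDH11 2 of 2. ALDH1A1 had 10 of 18 lower and none higher, DHRS3 5 of 9 lower and none higher, and RDH10 4 of 10 lower and 5 higher. The tested STRA6 probe was not called. Probes of 1 gene share its transcripts and are not separate replicates. When 6 arrays (HFD in Cy3, animals 5 to 10) were set aside, 6 member probes were higher and 15 lower on the remaining 14 arrays. That set of 6 arrays was defined by dye orientation and animal number, not by a cut-off on a quality measure. In animals 1 to 4 alone 12 were lower and none higher.

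**Figure D2:**
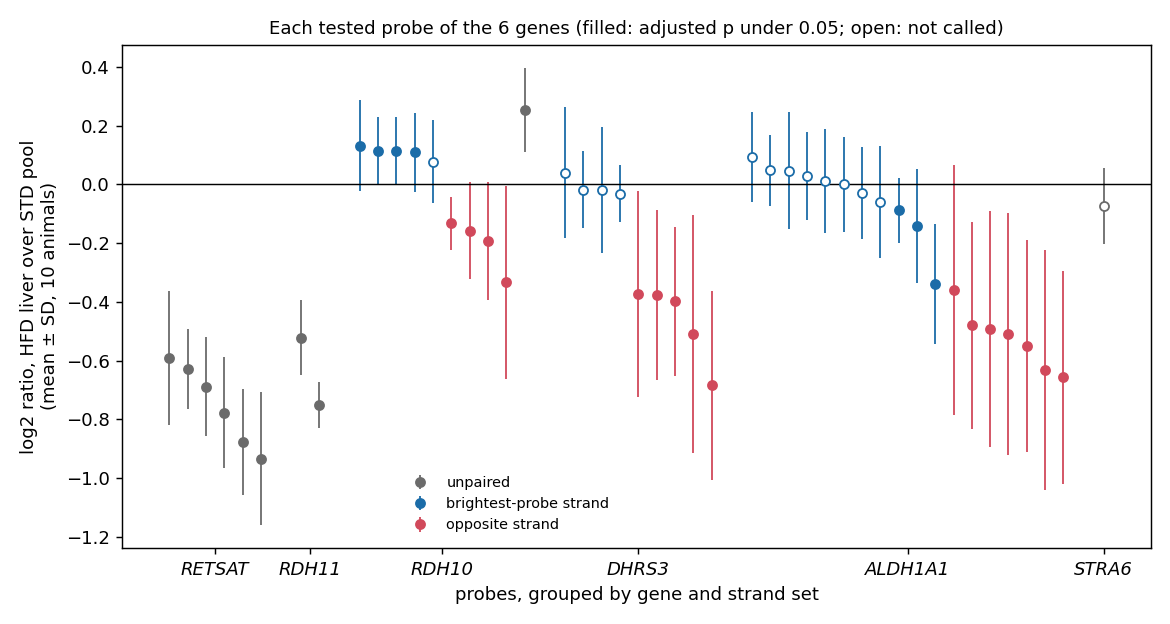
Mean log2 ratio ± SD over 10 animals (vertical axis) of each of the 46 tested probes, grouped by gene (horizontal axis) and coloured by strand set. Filled points were called at an adjusted p under 0.05 and open points were not. The opposite-strand probes of RDH10, DHRS3 and ALDH1A1 all lie below 0 and below every probe of the other strand of the same gene.

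The mixed picture within ALDH1A1, DHRS3 and RDH10 ran with the strand, and brightness differed between the strands as well. On the strand opposite to the brightest probe, all 7 ALDH1A1 probes, all 5 DHRS3 probes and all 4 RDH10 probes were called lower. On the strand of the brightest probe, 3 of 11 ALDH1A1 probes and none of the 4 DHRS3 probes were called lower, and 4 of 5 RDH10 probes were called higher (limma, adjusted over all probes). For DHRS3 the opposite-strand probes were dimmer, at a mean log2 brightness of 8.9 to 9.9 against 10.8 to 13.3. The ranges overlapped for ALDH1A1 (10.0 to 11.6 against 9.4 to 15.5) and RDH10 (7.5 to 9.8 against 8.9 to 11.1). The 3 ALDH1A1 probes called lower on the strand of the brightest probe were the dimmest of that strand. The part of brightness in the strand difference was not tested. In all 8 probe pairs that share bases, the opposite-strand probe had the lower ratio. This split was made after the values were seen, and its set means are given with no test.

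In the printed ALDH1A1 pair the probe on the strand of the brightest one had a ratio of 0.05 ± 0.20 and its partner of -0.49 ± 0.40. The DHRS3 pair gave -0.02 ± 0.21 and -0.38 ± 0.29. The RDH10 pair, whose probes share 59 bases, gave 0.13 ± 0.15 and -0.13 ± 0.09, and these were called in opposite directions. The opposite-strand RDH10 probe was at 0.01 with HFD in Cy5 and at -0.28 with HFD in Cy3, and its partner at 0.05 and 0.21. In this pair the opposite-strand probe was the brighter, at a mean log2 brightness of 9.8 against 8.9. The same stretch of a gene thus gave different ratios on its opposite strands.

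As a mean over its probes, the opposite strand of ALDH1A1 lay between -1.16 and 0.01 over the 10 animals (median -0.46, mean -0.53 ± 0.39), and the strand of the brightest probe between -0.36 and 0.15 (mean -0.04 ± 0.15). Animals 10 and 9 were lowest on the opposite strand, and animal 3 was the one above 0. For DHRS3 the opposite strand lay between -1.07 and -0.04 (mean -0.47 ± 0.32), with animal 9 lowest and animal 2 highest, and the other strand between -0.31 and 0.16 (mean -0.01 ± 0.14). For RDH10 the opposite strand lay between -0.48 and 0.04 (mean -0.20 ± 0.18), and the other strand between -0.05 and 0.32 (mean 0.11 ± 0.12). Within an animal the opposite strand was lower than the other in 10 of 10 animals for each of the 3 genes, by 0.49 ± 0.27 for ALDH1A1, 0.46 ± 0.21 for DHRS3 and 0.31 ± 0.19 for RDH10 on the log2 scale. A further RDH10 probe, on a transcript with no partner, was called higher at 0.25 ± 0.14. It was at 0.15 on the 14 arrays without the 6 set aside, and at 0.16 in animals 1 to 4.

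Opposite-strand ratios were also lower outside these genes. Among 662 other named genes with such probe pairs, 54.6% of 874 opposite-strand probes were called lower, against 30.2% of 860 probes on the strand of the brightest probe. Their mean per animal was -0.16 ± 0.11 on the opposite strand, from -0.30 in animal 9 to 0.00 in animal 2 (a value of 0.0015), and 0.02 ± 0.02 on the other. Animals 5 to 10 gave -0.24 and animals 1 to 4 gave -0.05 for these opposite-strand probes. The opposite strands of ALDH1A1, DHRS3 and RDH10 showed the same order, at -0.76, -0.63 and -0.32 in animals 5 to 10 and at -0.18, -0.22 and -0.03 in animals 1 to 4. On the 14 arrays, fitted singly with the dye as a covariate and a random block for the animal, they were at -0.17, -0.17 and 0.0044, and the other genes' opposite strands at -0.05. What makes opposite-strand ratios lower was not tested.

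**Figure D3:**
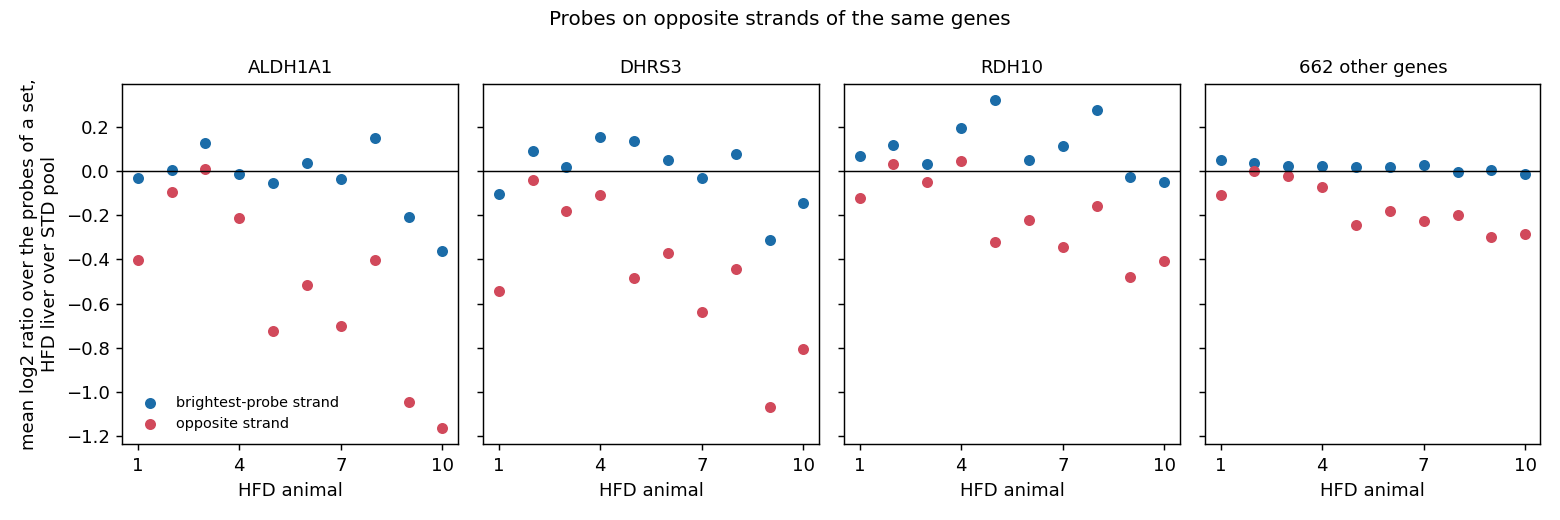
Mean log2 ratio over the probes of a strand set (vertical axis) in each of the 10 HFD animals (horizontal axis), for ALDH1A1, DHRS3, RDH10 and 662 other genes with probe pairs on opposite strands. The opposite-strand mean lies below that of the other strand in every animal and panel, and the distance is smaller in the panel of other genes.

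The animals' order on the opposite strands was shared with the array-wide opposite-strand mean. Over the 10 animals, the correlation with that mean was r = 0.95 (rho = 0.96) for the ALDH1A1 opposite strand, 0.88 (0.89) for DHRS3 and 0.94 (0.94) for RDH10. On the strand of the brightest probe it was 0.61 (0.71), 0.53 (0.52) and 0.09 (0.25). Over animals 5 to 10 alone (n = 6) it was 0.94, 0.91 and 0.92 on the opposite strands of ALDH1A1, DHRS3 and RDH10, and 0.88, 0.78 and 0.50 on the strands of their brightest probes. On the arrays with HFD in Cy5 it was 0.80, 0.76 and 0.66 on the opposite strands, and 0.46, 0.43 and -0.11 on the others. RETSAT, which has no partner probes, gave r = 0.90 (rho = 0.90) for the mean of its 6 probes, and RDH11 gave 0.28 (0.31). STRA6 gave 0.68 (0.66) over both dye orientations but -0.42 on the arrays with HFD in Cy5. The unpaired RDH10 probe gave -0.33 (-0.41) over the 10 animals, but 0.71 over animals 5 to 10 (n = 6) and 0.39 on the arrays with HFD in Cy5. These 10 relations are descriptions with no p, since the array-wide mean was chosen after the data were seen, and all ratios of an animal share its arrays and the pool.

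Without the 2 animals farthest from the median of the array-wide mean, r was 0.79 for RETSAT and 0.17 for RDH11, and over animals 5 to 10 alone it was 0.77 and 0.18 (n = 6). On the arrays with HFD in Cy5 alone, which hold none of the 6 set aside, r was 0.89 for RETSAT and 0.21 for RDH11. So the animals with the lowest RETSAT ratios were those with the lowest opposite-strand ratios across the array, and RDH11 showed little of this order. In animal 2 the 6-probe mean of RETSAT was -0.51, where the array-wide opposite-strand mean was 0.0015. The mean of RETSAT's 6 probes was -0.61 in animals 1 to 4 and -0.85 in animals 5 to 10. That of RDH11's 2 probes was -0.61 and -0.65. Whether the RETSAT probes read the coding strand is not given in the files used here. The probe sequences were not compared with known proteins, so the strand was not determined. At least 1 reading frame free of stop codons was found in all 6 RETSAT probes as the reverse complement and in 5 as printed. Of the 2 RDH11 probes, 1 had such a frame as the reverse complement and 2 as printed. Counts over so few probes do not decide the strand. The part of the array-wide difference in RETSAT was not tested.

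**Figure D4:**
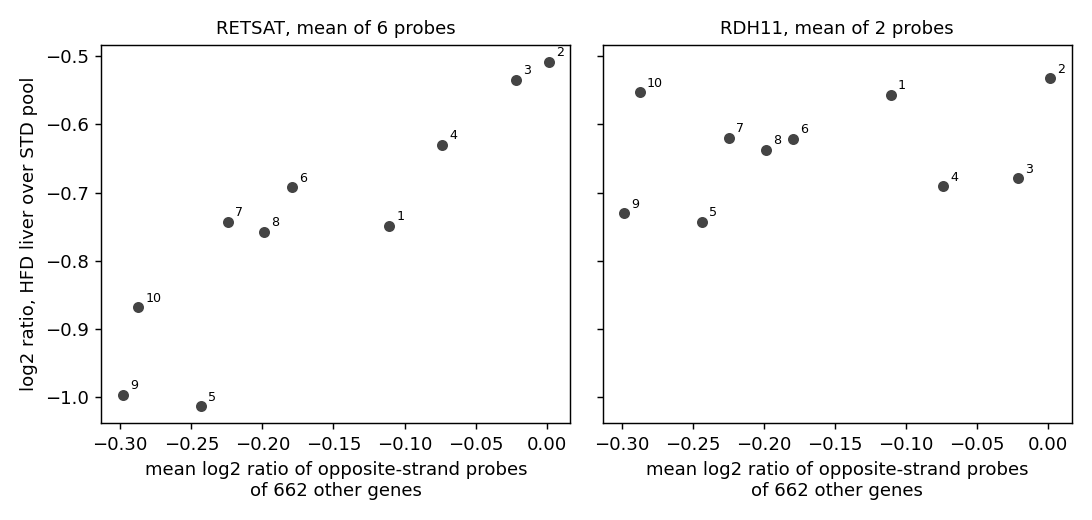
Mean log2 ratio of the 6 RETSAT probes (left) and the 2 RDH11 probes (right) of each animal (vertical axis) against the animal's mean over opposite-strand probes of 662 other genes (horizontal axis); numbers are animals. RETSAT falls from -0.51 in animal 2 to about -1 in animals 5 and 9 along the horizontal axis, and RDH11 shows no such slope.

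Both dye orientations were compared, because a dye effect cancels only in their mean. RETSAT was at -0.88 on the 10 arrays with HFD in Cy5 and at -0.67 on the 10 with HFD in Cy3, and RDH11 at -0.81 and -0.69. The RDH10 values were 0.06 and 0.16, those of DHRS3 were -0.0042 and -0.03, and those of ALDH1A1 were -0.01 and 0.07. The opposite-strand means of ALDH1A1, DHRS3 and RDH10 were -0.34, -0.34 and -0.05 with HFD in Cy5. With HFD in Cy3 these means were lower, at -0.71, -0.60 and -0.36. STRA6 went opposite ways, at 0.25 with HFD in Cy5 and -0.40 with HFD in Cy3, and each orientation alone passed the test (limma adjusted p = 2.2e-04 and 4.2e-04). Its mean near 0 is therefore the balance of opposite values, and no direction is given for STRA6.

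**Figure D5:**
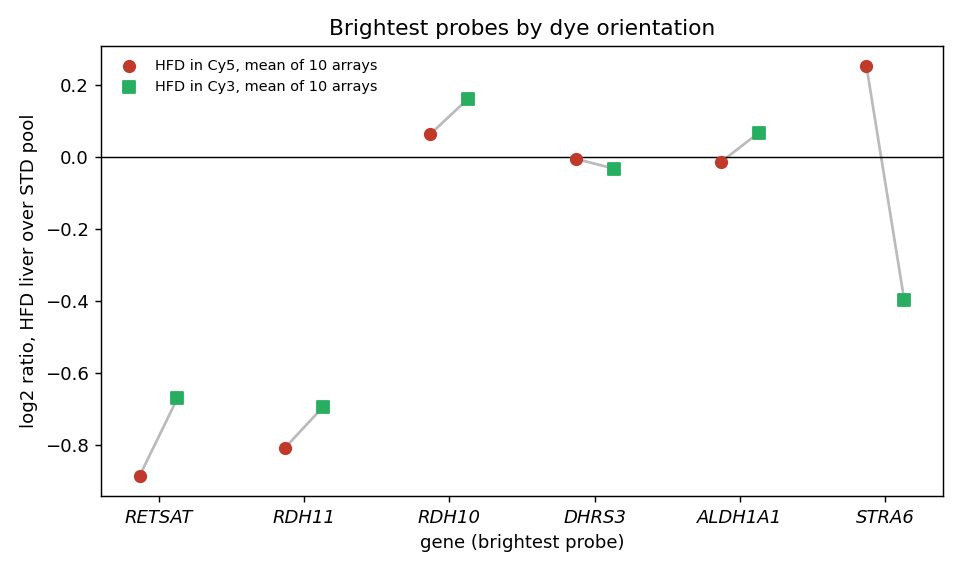
Mean log2 ratio (vertical axis) of each gene's brightest probe (horizontal axis) over the 10 arrays with HFD in Cy5 (circles) and the 10 with HFD in Cy3 (squares). RETSAT and RDH11 lie below -0.6 in both orientations, and STRA6 lies at 0.25 in one and -0.40 in the other.

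The 6 brightest probes did not rise and fall together in a way that passed the test over 15 pairs. RDH10 and DHRS3, which run the retinol to retinal step in opposite directions, had r = 0.74 (rho = 0.67; permutation p = 0.017 and 0.0375, Benjamini-Hochberg adjusted p = 0.128 and 0.281). Without the 2 animals farthest from the RDH10 median r was 0.63, and within animals 5 to 10 it was 0.93. RDH11 and DHRS3 had r = -0.71 (rho = -0.78; permutation p = 0.0136 and 0.0104, adjusted p = 0.128 and 0.156), with r = -0.43 without the 2 farthest animals and -0.56 in animals 5 to 10. RETSAT and RDH11, both lower in all animals, had r = 0.06 (rho = -0.05; permutation p = 0.867 and 0.894, the same after adjustment).

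The named genes most like each member over the 10 animals, by Pearson r of their ratios, were described without a test. For RETSAT these were CREB3L3 (r = 0.98), C4BPB (0.97) and CYP4B1 (0.97), whose own mean ratios were -0.29 ± 0.15, -0.67 ± 0.25 and -1.53 ± 0.52. ALDH1A1 was most like ALDH1A7 (r = 0.97), a close relative, and then LMF1 (0.94) and POLR2I (0.93). Probes of ALDH1A7 share up to 28 bases with ALDH1A1 probes, as the reverse complement with opposite-strand probes and as the same letters with 1 probe on the strand of the brightest probe. The brightest ALDH1A1 probe itself is not among those with a shared stretch. Because of these stretches, the split of signal between ALDH1A1 and ALDH1A7 is uncertain. Another ALDH1A1 opposite-strand probe, at -0.51 ± 0.41, shares 58 bases as the reverse complement with a bright probe that bears no gene name, which stood at 0.08 ± 0.16. The nearest genes were C12ORF68 (0.92), CYP2C29 (0.91) and ACP1 (0.91) for RDH10, and KLHL3 (0.94), MPHOSPH8 (0.92) and TMEM41B (0.92) for RDH11. For DHRS3 they were RGD1304810 (0.90), TCF7L1 (0.88) and CPXM2 (0.87), and for STRA6 SLC4A4 (0.97), NLGN2 (0.96) and MYH4 (0.96).

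The other genes of the pathway were read from lists, by their brightest probes and in the same limma fit, with a median ratio of 0.01 over all named genes. Of 16 measured genes that interconvert retinol and retinal, RDH10, RDH11 and DHRS3 included, 2 were higher and 5 lower (median -0.02). Besides RDH11, RDH13 (-0.83 ± 0.11), DHRS4 (-0.61 ± 0.22) and RDH12 (-0.36 ± 0.07), short-chain dehydrogenases like it, fell (adjusted p = 1.33e-09, 2.52e-06 and 2.09e-07). Neither of the 2 further RDH13 probes was called lower, and RDH12 cleared the background in HFD RNA on 14 of 20 arrays. Of 5 measured genes of retinoic acid synthesis, ALDH1A1 included, 1 was higher and 3 lower (median -0.17). The aldehyde dehydrogenase ALDH8A1 (-0.91 ± 0.33), ALDH1A3 (-0.17 ± 0.09) and the aldehyde oxidase AOX1 (-0.48 ± 0.33) fell (adjusted p = 2.47e-06, 3.48e-04 and 4.01e-04), the last with all 17 further probes.

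Storage and transport genes went both ways. In the list of retinyl ester making and breakdown, 3 of 8 measured genes were higher and 2 lower (median -0.03). The carboxylesterase genes CES1D (2.24 ± 0.27), CES1F (1.77 ± 0.30) and CES2 (0.39 ± 0.21) rose (adjusted p = 1.72e-10, 2.90e-09 and 9.06e-05), and of the 7 further CES1D probes 2 were higher and 4 lower. Of 7 measured binding and transport genes, STRA6 included, 1 was higher and 2 lower (median -0.07). RBP4, the retinol carrier of plasma, was called lower at -0.18 ± 0.08, but stood at 0.13 with HFD in Cy5 and at -0.49 with HFD in Cy3. LRP1 (-0.26 ± 0.11), an endocytic receptor, was called lower and CRABP2 (0.17 ± 0.12), which carries retinoic acid, rose (adjusted p = 3.51e-05 and 0.0017). Of the 58 further LRP1 probes 13 were lower and none higher. Of 4 carotenoid genes 2 were higher and 2 lower. The scavenger receptor SCARB1 (-0.30 ± 0.15) fell and the carotenoid oxygenase BCMO1 (0.18 ± 0.09) rose (adjusted p = 6.24e-05 and 1.48e-04). BCO2, another carotenoid oxygenase, was called higher at 0.18 ± 0.15 (adjusted p = 0.0029), but stood at -0.11 with HFD in Cy5 and at 0.47 with HFD in Cy3, and its 2 further probes were lower.

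On the receptor side, 3 of 6 retinoid receptor genes were higher and 2 lower (median 0.10). RXRA (0.47 ± 0.19) and RARB (0.34 ± 0.17) rose and RXRB (-0.20 ± 0.11) fell (adjusted p = 9.67e-06, 5.78e-05 and 2.53e-04). RARB had 5 of 6 further probes higher, but RXRA had none of 8 higher and 5 lower. Of 7 measured genes known to be induced through retinoic acid receptors, DHRS3 and STRA6 included, 3 were higher and none lower (median 0.05), and 4 had an unadjusted limma p under 0.05. Besides RARB and CRABP2 this was RARRES2 (0.50 ± 0.11, adjusted p = 1.10e-07), which encodes chemerin. Of the 2 measured genes of retinoic acid breakdown none was called and none had an unadjusted p under 0.05. CYP26B1 was at 0.05 ± 0.09 and CYP2C39 at -0.10 ± 0.25 (limma adjusted p = 0.17 and 0.22).

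In a bulk liver sample fewer cells of a type and less RNA per cell cannot be told apart, so cell type markers are given beside the retinoid genes. All 15 measured hepatocyte markers cleared the background on 10 or more arrays in either RNA. Of these, 13 were lower and 1 higher in HFD liver, with a median of -0.39. Summed over these genes the log2 ratios lay between -10.46 and -4.57 per animal. ALB, counted as lower, stood at 0.35 with HFD in Cy5 and at -0.81 with HFD in Cy3. The other hepatocyte markers called lower were below 0 in both orientations. RETSAT, which hepatocytes are known to express, and RDH11 lay below the hepatocyte marker median. The part of the hepatocyte markers in the RETSAT and RDH11 ratios was not tested. Of 16 measured stellate cell markers, 3 were higher and 7 lower (median -0.04, sums from -1.80 to -0.37), and of 13 markers of activated stellate cells and fibroblasts 3 and 4 (median -0.04, sums from -2.38 to 2.79). LRAT, a defining stellate cell gene, could not be read. The counts of higher and lower genes were 4 and 2 of 11 for endothelium, 4 and 3 of 10 for macrophages and Kupffer cells, and 1 and 2 of 5 for adipocytes. None of 5 cholangiocyte markers was called or had an unadjusted limma p under 0.05.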

How the data were processed

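Per the file headers, the deposited spot intensities give the mean brightness of a spot and the median of its local background for Cy3 (green) and Cy5 (red), from Agilent's Feature Extraction software, and the deposited processed intensities were background-subtracted and dye-normalised by it. A table of log2 ratios for every probe and animal was deposited by the authors, and for it the submitters' processing notes name limma. How it was made beyond that is not given in the sources used here. Compared with the ratios computed here for an animal (r between 0.88 and 0.95 over probes), its columns run as HFD over pool on a log2 scale, with column medians between -0.01 and 0.02, and their centring stays unknown.

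Each of the 20 arrays held 165353 spots that were no controls, and 74.8% to 97.2% of them cleared the background in HFD RNA. None was saturated. There were 7 slides and 3 scan sessions, the second with 1 array and the others with both dye orientations. The number of arrays limits the precision. Intensities were corrected with normexp (offset 50) and loess within each array in limma 3.58.1 (R 4.3.3). Spots of a probe, and then the 2 arrays of an animal, were averaged. A probe was kept if well above background in either RNA on at least 10 of 20 arrays, and the brightest kept probe stood for its gene. Means were tested against 0 with lmFit and eBayes, with Benjamini-Hochberg adjustment over 13826 genes or 103879 probes. The test was tried on simulated data. The p-values measure how far 10 separate animals agree against 1 pool. Probes were paired across strands where they share at least 20 bases as reverse complements. The named genes are the members, up to 3 called genes with the smallest adjusted p of each pathway list, and the 3 genes most like each member. Members and lists were chosen with earlier results of these data known. A gene of the lists is not reported here by name. Gene names come from the array's design. Other normalisations, filters, fits, orientations, sessions and subsets of animals were tried as alternatives.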

Additional observations from a re-analysis of the deposited data

Results flagged for a closer look

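For RDH11, 1 animal stood apart from the others. By the brightest probe, animal 1 was at -0.56 and the nearest other animal at -0.68, a gap of 0.484 of the whole range and above Dixon's critical value for 10 samples. The same animal was lowest by the RDH10 probe that has no partner on the opposite strand, at -0.09 with the nearest animal at 0.19, a gap of 0.583 of the range. Chance alone flags about 1 in 20 groups. RDH11 was still called lower without animal 1.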

How the results depend on the processing

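RETSAT and RDH11 were called lower under every alternative run. RDH10 was above 0 under all but the mean of all kept probes of a gene, which put RDH10 at -0.0016 (not called), ALDH1A1 at -0.23 and DHRS3 at -0.26 (both called lower). STRA6 was at 0.25 with HFD in Cy5 alone, and at 0.062 on the 14 arrays, where the RDH10 opposite strand was at 0.0044. Without the 6 arrays set aside, 21 member probes were called. In the third scan session alone 5096 genes, 30255 probes and 20 member probes were called, and in animals 1 to 4 alone 3841, 21383 and 12, with fewer samples in each. Leaving out 1 animal gave 7811 to 8546 genes, 52384 to 59149 probes, 3 member genes and 28 to 32 member probes. With the software's processed signals no pair of members was correlated after adjustment either. The second scan session holds 1 array and was not run alone. No paired analysis was possible because the labels give 1 group of animals, all set against the same pool. RETSAT's mean was -0.89 with processed signals and -0.88 with the authors' deposited log2 ratios, and RDH11's was larger with both as well.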
